A study of Homo sapiens with 12 samples.

Results

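Focal adhesion kinase (FAK) and 34 further genes of focal adhesion signalling were followed by RNA sequencing in Cal27 cells, an established human line of squamous tongue carcinoma. The 35 genes were taken by symbol from a deposited count table of 25382 symbols, integrins left aside, and every one was present. All 35 passed the low-count filter, which left 15437 genes for testing. Wild-type cells were conditioned for 5 days and then replated for 1 day on a soft gel, on polyacrylamide coated with collagen. Stiff-to-soft cells were conditioned on gels of 20 kPa. LPA-to-soft cells had soft gels of 0.48 kPa instead, with lysophosphatidic acid (LPA), a lipid that signals through G protein-coupled receptors. LPA-to-FAKi cells had the same LPA conditioning and met a FAK inhibitor during replating, with neither its name nor its dose stated in the labels. Soft-to-soft cells saw soft gels throughout, with no agent. The study groups stiff-to-soft and LPA-to-soft as cells that learned, and LPA-to-FAKi and soft-to-soft as cells that did not learn or forgot. Each of the 4 conditions had 3 libraries, numbered 1 to 3.

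Focal adhesions join integrins to actin. Talins and kindlins bind integrin tails and switch the receptors on, and tensins, parvins and PINCH tie them to actin. FAK is recruited there, phosphorylates itself and docks SRC, and the pair then phosphorylates the adaptors paxillin and p130Cas, which feed RAC and RAP small GTPases through CRK, DOCK1 and RAPGEF1. Most of this signalling runs through phosphorylation and protein assembly, which RNA levels do not measure.

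Total counts ran from 62953957 to 122311183 per library, of which these 35 genes took 0.463% to 0.539%. All 8 squamous epithelial markers examined were expressed, summing to 4770 to 12100 CPM (counts scaled to library size by TMM). Summed markers of other cell types stayed lower, at 14.6 to 36.4 CPM for fibroblasts, 9.58 to 41.9 CPM for leukocytes, where CD3E was at 0, and 5.74 to 37.8 CPM for endothelium. Soft-to-soft replicates 1 and 2 stood apart from the other 10 libraries in their low counts. Of counts from 1 to 19, 42.9% and 42.2% were even in them, against 96.8% to 97.8% elsewhere, so results against soft-to-soft were also taken without them. Whether replicates were separate cultures is not stated, and p-values cover the spread between these libraries alone, which may be technical. In bulk RNA, fewer cells with a transcript and less transcript per cell cannot be told apart.

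Levels differed between the genes by several orders of magnitude. Per kilobase of exon, caveolin-1 (CAV1), the coat protein of membrane pits called caveolae, was the most abundant at 325 CPM per kb. It was followed by tensin-4 (TNS4) at 50.6, paxillin (PXN) at 38.5 and kindlin-1 (FERMT1), the epithelial kindlin, at 38.2 CPM per kb. FAK itself (PTK2) ranked 29 of 35 at 3.66 CPM per kb, below its relative PYK2 (PTK2B) at 5.58. That order depends on the length, which joins the exons of all annotated transcripts, 13742 bases for PTK2 and 7933 for PTK2B. Not divided by length, PTK2 was the higher, at 52.1 against 43.3 CPM over learned libraries and 48.4 against 45.2 CPM over the others. Among the SRC family kinases YES1 was the most abundant at 30.4 CPM per kb, with SRC at 7.98 and FYN at 0.081. The broadly expressed talin-1 (TLN1) stood at 18.5 and talin-2 (TLN2) at 0.181 CPM per kb. Kindlin-2 (FERMT2) lay at 1.1 CPM per kb, far under kindlin-1. Tensin-3 (TNS3) lay at 28.2 and tensin-1 (TNS1) at 0.0329 CPM per kb. FYN was counted with 20 to 110 reads per library and TNS1 with 22 to 82, so both are known less precisely than the rest. LIMS1, which encodes the ILK partner PINCH1, has near-identical gene copies that share reads with it, and its level is uncertain for that reason.

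**Figure D1:**
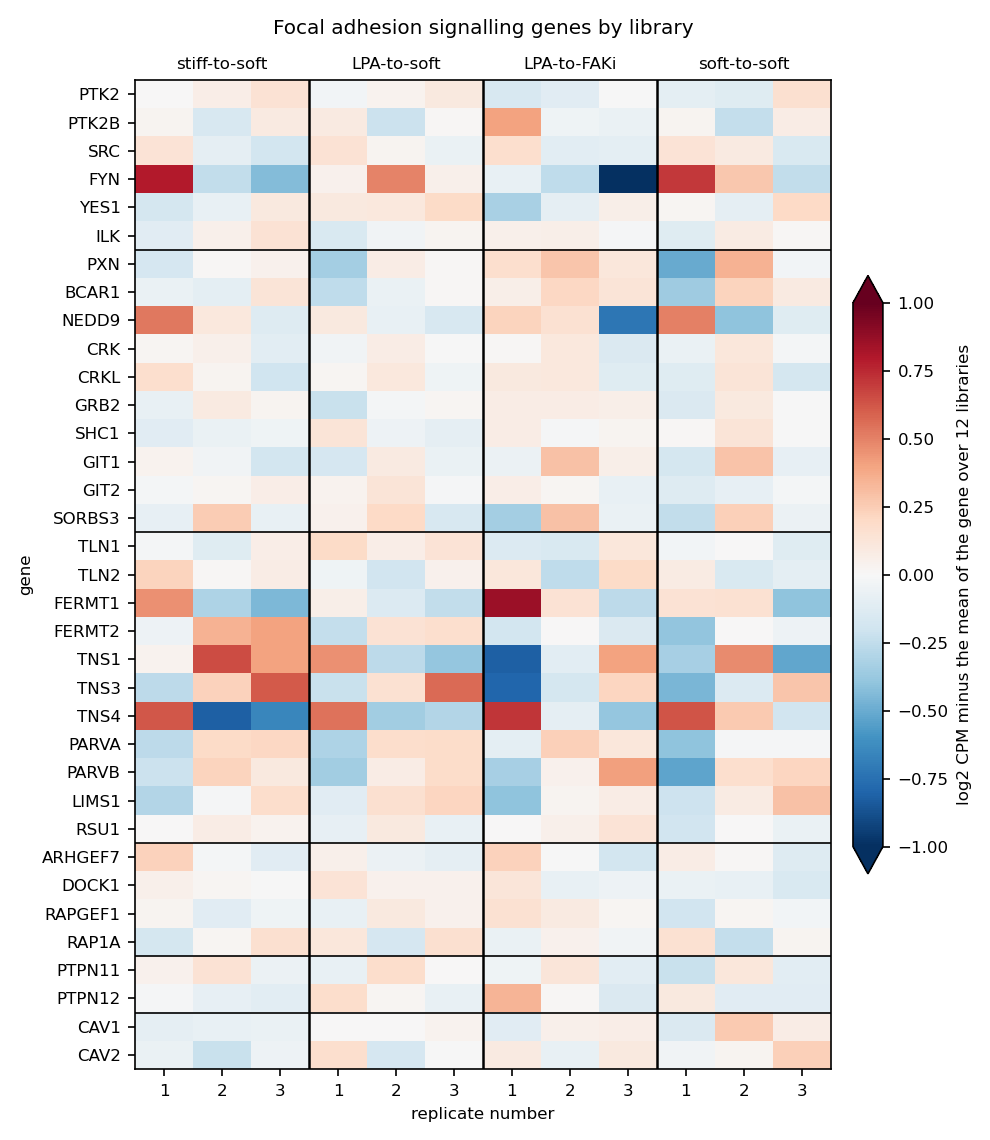
Log2 CPM of each of the 35 genes in each library, minus the mean of the gene over the 12 libraries (colour, red above and blue below). Columns are libraries by condition and replicate number, rows are genes grouped by role, and values beyond 1 in either direction take the end colour. TNS3, PARVA, PARVB and LIMS1 are lower in the libraries numbered 1 of every condition, and TNS4 is higher there.

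Conditions were compared in 6 ways with edgeR's quasi-likelihood test, where a gene is called if its Benjamini-Hochberg adjusted p over all genes is under 0.05. The same-numbered libraries of different conditions deviated together, so fits with replicate number as a block are given where they change a call. Without the block edgeR called 0 of the 35 genes in each of the 6, and so did DESeq2, which called 0.0259% of all genes in stiff-to-soft and 0.013% in LPA-to-soft against soft-to-soft, 0.0324% in LPA-to-FAKi against LPA-to-soft, 0.0194% in LPA-to-FAKi against soft-to-soft and 0% in the other 2. For DESeq2, shares of all genes count only the genes given an adjusted p, 10349 to 15428 of the 15437 tested. Shares of the 35, and of the pathway lists below, keep every gene. FYN, TNS1 and TLN2 had no DESeq2 adjusted p with the block in LPA-to-soft against soft-to-soft. TNS1 had none in LPA-to-FAKi against LPA-to-soft. Genes outside the naming rule that are named below from a count were chosen after their values were seen.

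Stiff-to-soft was set against soft-to-soft to ask what stiff conditioning leaves after a day on soft gels. No gene passed in edgeR, with 0% of all genes called. With the replicate block edgeR again called 0 of the 35, against 0.583% of all genes, and DESeq2 with the block called 3, or 8.57%, against 3.27% of all genes. All 3 encode proteins that bind integrin tails, and FERMT2 and TNS3 rose while TNS4 fell. Tensin-3 carries an SH2 domain and binds integrin tails and actin. TNS3 was at 267, 375.4 and 489.6 CPM in stiff-to-soft replicates 1, 2 and 3, against 233.5, 292.3 and 388.1 CPM in soft-to-soft. The groups overlap, yet within each replicate number the stiff-to-soft library is the higher one. TNS3 rose by 0.30 ± 0.073 (log2 ± SE, DESeq2 with the block, adjusted p = 0.00356). Later values after ± are likewise SE unless SD is named. EdgeR with the block gave 0.30 ± 0.066 and an adjusted p of 0.0873, or 0.0285 once LPA-to-FAKi replicate 1 was left out of the shared spread. Only 2 of 37 alternative fits called TNS3 in this comparison.

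FERMT2, the kindlin of mesenchymal and many other cells, was at 8.93, 11.8 and 12.2 CPM in stiff-to-soft replicates 1 to 3, against 7.04, 9.27 and 8.92 CPM in soft-to-soft. Again each stiff-to-soft library exceeds its same-numbered partner, and the sets overlap. The difference was 0.38 ± 0.111 in DESeq2 with the block (adjusted p = 0.0234). Without the block it alone among the 35 genes had an unadjusted p under 0.05 in edgeR, a share of 2.86% against 1.94% of all genes. With the block 5 did, or 14.3% against 10.2%, namely PARVA, FERMT2, TNS3, TNS4 and CAV2. TNS4, which binds integrin tails but lacks the actin-binding region of other tensins, was at 354.6, 130.5 and 146.9 CPM in stiff-to-soft, against 356.1, 275.9 and 201.6 CPM in soft-to-soft. Replicate 1 hardly differs, and replicates 2 and 3 carry the fall of 0.51 ± 0.148 (DESeq2 with the block, adjusted p = 0.0263). EdgeR with the block gave TNS4 an adjusted p of 0.1925, and only 1 of 37 alternative fits called it here. Against soft-to-soft replicate 3 alone, without the 2 libraries that stand apart, TNS3 stood at 0.34 and TNS4 at -0.45 with the block, neither called. Without the block, where that 1 library meets stiff-to-soft libraries of all 3 numbers, the values were -0.05 and 0.05.

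The other genes, kinases and adaptors included, did not pass in any of these fits. PTK2 was at 50.4, 52.5 and 55.5 CPM in stiff-to-soft, against 46.9, 46.2 and 56 CPM in soft-to-soft, a difference of 0.09 ± 0.094. Alpha-parvin (PARVA), an actin-binding partner of ILK, was at 65.9 ± 11.35 against 57.7 ± 8.504 CPM (SD, n = 3 each) and higher in each replicate number by 0.14 to 0.22. CAV1 stood at -0.15 ± 0.118 and CAV2, its partner in caveolae, at -0.20 ± 0.117. FYN stood at -0.15 ± 0.453, within its error, and TNS1 at 0.46 ± 0.453, about the size of its error. The small GTPase RAP1A and the exchange factors DOCK1, ARHGEF7 and RAPGEF1 had positive values of at most 0.12. Over all genes 48.2% of values were positive. Of the GTPase-activating scaffolds, counted as adaptors, GIT1 stood at -0.08 and GIT2 at 0.10. The 2 conditions did not overlap for 4 genes, or 11.4% against 4.35% of all genes. The RAC exchange factor DOCK1 and the ARF GTPase-activating scaffold GIT2 were higher (2.16% of all genes were), and CAV2 and the adaptor SHC1 were lower (2.19%). Of the 35 genes, 14 moved one way in every replicate number, or 40% against 30.4% of all genes.

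The proximal promoters of TNS3, FERMT2 and YES1 are shown because these are the genes called in any of the fits with the block for which the RefSeq table held one, TNS4 being the other. They are the 250 bases upstream of the first listed start site on GRCh38.p14, all on the minus strand, at chr7:47582587-47582836 for TNS3, chr14:52951051-52951300 for FERMT2 and chr18:812243-812492 for YES1. Capitals mark GGGCGG, the core of an SP1 site, on either strand, with overlapping matches joined.
TNS3: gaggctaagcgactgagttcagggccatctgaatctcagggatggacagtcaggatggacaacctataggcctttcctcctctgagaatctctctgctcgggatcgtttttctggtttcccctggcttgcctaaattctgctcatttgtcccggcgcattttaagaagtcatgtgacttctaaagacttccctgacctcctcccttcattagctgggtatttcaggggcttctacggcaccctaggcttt
FERMT2: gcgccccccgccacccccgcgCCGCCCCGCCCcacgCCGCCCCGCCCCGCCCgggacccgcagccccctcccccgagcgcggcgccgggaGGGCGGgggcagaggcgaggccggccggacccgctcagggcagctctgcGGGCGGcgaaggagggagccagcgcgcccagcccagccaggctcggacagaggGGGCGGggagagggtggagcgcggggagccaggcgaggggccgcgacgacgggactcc
YES1: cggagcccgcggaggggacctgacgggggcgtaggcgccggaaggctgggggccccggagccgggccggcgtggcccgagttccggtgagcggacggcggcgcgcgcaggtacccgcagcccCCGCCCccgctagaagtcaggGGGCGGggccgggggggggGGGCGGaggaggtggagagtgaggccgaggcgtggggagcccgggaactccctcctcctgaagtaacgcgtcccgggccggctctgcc
The FERMT2 window held 8 such matches and 36 CpG dinucleotides, and the YES1 window 3 matches and 32 CpG. The TNS3 window held 0 matches and 6 CpG, against a median of 11 CpG over 35116 RefSeq promoter windows of this length. GGGCGG occurred in 42.6% of those windows and in 53.4% of 58 windows of these adhesion genes. The AP-1 core TGANTCA (6.57% of all windows, 6.9% of the 58) and the TEAD core GGAATG (11.9% and 8.62%) were in none of the 3 printed windows, which says only that these letters are not there. Windows were held for 27 of the 35 genes, and TNS3 had 3 start sites.

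LPA-to-soft was set against soft-to-soft to ask what earlier LPA leaves behind. In edgeR 0 of the 35 genes were called, with or without the block, as for 0% of all genes, and none had an unadjusted p under 0.05 without the block (1.37% of all genes). With the block TLN1, PARVA, TNS3 and DOCK1 did, or 11.4% against 7.97%. DESeq2 with the block called TNS3 alone, or 2.86% against 0.792% of the 10349 genes given an adjusted p. TNS3 was at 275.4, 356 and 473.8 CPM in LPA-to-soft replicates 1 to 3, against the same soft-to-soft values as above. Each LPA-to-soft library is the higher one of its replicate number, by 0.24, 0.28 and 0.29 on the log2 scale. The gene rose by 0.27 ± 0.073 (DESeq2 with the block, adjusted p = 0.0404), with an adjusted p of 0.393 in edgeR with the block. With soft-to-soft replicates 1 and 2 left out its value was 0.31 with the block, uncalled in edgeR, and -0.08 without it.

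PTK2 was at 49.2, 51.4 and 53.7 CPM in LPA-to-soft and stood at 0.05 ± 0.094 against soft-to-soft. Talin-1, the main activator of integrins, was at 212.9, 195.1 and 204.1 CPM in LPA-to-soft, against 182.6, 186.5 and 170.6 CPM in soft-to-soft. All of its LPA-to-soft libraries lie above all soft-to-soft ones, at 0.18 ± 0.099 without a call. DOCK1 (0.17 ± 0.078) and GIT2 also did not overlap, which made 3 of 35 genes or 8.57%, against 4.83% of all genes, or 2.64% on the higher side. One way in every replicate number went 10 of the 35, or 28.6% against 34.2%. FERMT2 stood at 0.17 ± 0.170, TNS4 at -0.24 ± 0.419, BCAR1 (p130Cas) at -0.11 ± 0.142, FERMT1 at -0.09 ± 0.296 and the related adaptor NEDD9 at -0.09 ± 0.277. Of the 10 adaptors 4 had positive and 6 negative values, between -0.11 and 0.13.

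LPA-to-FAKi and LPA-to-soft share their conditioning and differ in the inhibitor during replating. With the block 22.3% of all genes had an unadjusted p under 0.05 in edgeR, the largest such share of the 6 comparisons, and 8 of the 35 adhesion genes did, or 22.9%. Without the block these were 5.43% of all genes and 0 of the 35. By adjusted p edgeR called 0 of the 35 and 0% of all genes with or without the block, while DESeq2 with the block called 2 of the 35, or 5.71%, against 9.44% of all genes. Both shares of the adhesion genes are near or below the background. The 2 called were TNS3 and YES1, and both fell.

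TNS3 was at 184.7, 284.5 and 371.2 CPM in LPA-to-FAKi replicates 1 to 3, against 275.4, 356 and 473.8 CPM in LPA-to-soft. Every inhibited library is below its partner, by 0.58, 0.32 and 0.35 on the log2 scale, and the sets overlap. TNS3 fell by 0.41 ± 0.073 (DESeq2 with the block, adjusted p = 1.51e-05). Of 37 alternative fits only 4, this one included, called TNS3 here. EdgeR with the block gave -0.42 ± 0.066 and an adjusted p of 0.0752. That p was 0.0355 with no low-count filter, 0.0375 without soft-to-soft replicates 1 and 2, and 0.0297 without soft-to-soft replicate 2, a library that enters this contrast only through the shared spread.

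YES1, a SRC family kinase that phosphorylates FAK partners, was at 123, 144.7 and 160.9 CPM in LPA-to-FAKi, against 164.8, 165.6 and 176.5 CPM in LPA-to-soft. Every LPA-to-FAKi library lies below every LPA-to-soft one. YES1 fell by 0.25 ± 0.080 (DESeq2 with the block, adjusted p = 0.0318). EdgeR with the block gave an adjusted p of 0.0989, or 0.0495 without soft-to-soft replicate 2. Only 2 of 37 alternative fits called YES1 here. FYN, at 0.535, 0.472 and 0.252 CPM in LPA-to-FAKi against 0.582, 0.807 and 0.584 CPM in LPA-to-soft, also did not overlap and stood at -0.64 ± 0.456 on few reads. SRC, the best known of the family, overlapped between the conditions, at 57.7, 47.9 and 48.1 CPM in LPA-to-FAKi and 57, 52.4 and 49.2 CPM in LPA-to-soft.

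PTK2, the gene of the inhibited kinase, was at 44.8, 46.4 and 50.1 CPM in LPA-to-FAKi, against 49.2, 51.4 and 53.7 CPM in LPA-to-soft. Each inhibited library is lower than its partner, by 0.14, 0.15 and 0.10 on the log2 scale, but LPA-to-FAKi replicate 3 is above LPA-to-soft replicate 1. The difference of -0.13 ± 0.094 was not called (adjusted p = 0.852 in edgeR). Inhibition of the kinase is not measured by its RNA, so this value does not check the treatment.

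Of the 10 adaptors 6 had positive and 4 negative values, between -0.05 and 0.26. Paxillin was at 318.5, 343.5 and 306.8 CPM in LPA-to-FAKi, against 224.1, 299 and 286.1 CPM in LPA-to-soft, without overlap. BCAR1, the p130Cas substrate of the FAK-SRC pair, was at 207.2, 229.7 and 218.1 CPM, against 167.1, 190.3 and 200.3 CPM in LPA-to-soft, also without overlap. Their values were 0.26 ± 0.187 and 0.23 ± 0.142, and neither was called in any of the alternatives tried. The adaptor GRB2, which links receptors to RAS, did not overlap either, at 150.8, 150.4 and 149.4 CPM in LPA-to-FAKi against 122.4, 141.5 and 145.2 CPM in LPA-to-soft. In all 5 of 35 genes did not overlap, or 14.3% against 11.4% of all genes, with 3 higher (8.57% against 5.95%) and 2 lower (5.71% against 5.4%). TLN1 stood at -0.19 ± 0.099, GIT1, a paxillin-binding scaffold, at 0.15 ± 0.138, and FERMT1 at 0.42 ± 0.296, where replicate 1 of LPA-to-FAKi, at 356.7 CPM, was the highest of all libraries. Within numbers 11 of the 35 went one way throughout, or 31.4% against 45.3% of all genes.

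**Figure D2:**
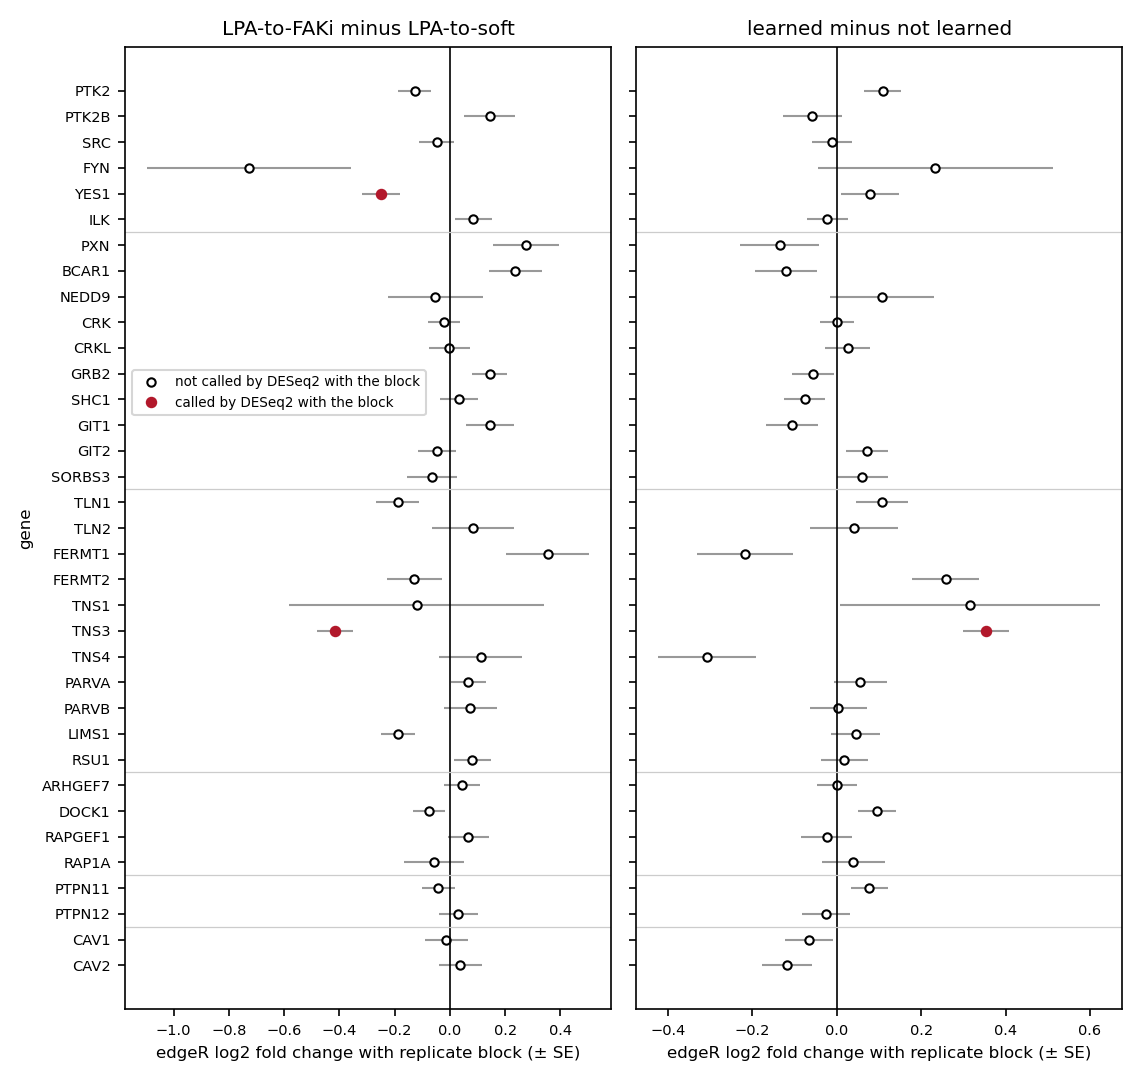
EdgeR log2 fold changes with the replicate block (points, bars ± SE) of the 35 genes in LPA-to-FAKi minus LPA-to-soft (left) and in learned minus not learned (right), with genes grouped by role. Filled points mark genes called by DESeq2 with the block, which are TNS3 and YES1 on the left and TNS3 on the right, and the axes of the 2 panels differ in range.

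LPA-to-FAKi against soft-to-soft compares conditions that differ in both LPA and the inhibitor. Neither edgeR nor DESeq2 called any of the 35 genes, with or without the block, while with the block edgeR called 0.564% and DESeq2 4.65% of all genes. At an unadjusted p under 0.05 edgeR had 0 of the 35 without the block (3.55% of all genes) and 3 with it (YES1, PARVA and LIMS1), or 8.57% against 16.6%. PTK2 stood at -0.08 ± 0.094, with LPA-to-FAKi libraries at 44.8 to 50.1 CPM and soft-to-soft libraries at 46.2 to 56 CPM. TNS3 stood at -0.12 ± 0.304 and was lower in each replicate number, by 0.34, 0.04 and 0.06. PARVA stood at 0.22 ± 0.174 and was higher in each number, by 0.30, 0.25 and 0.13. LIMS1 stood at -0.15 ± 0.171, YES1 at -0.16 ± 0.120, FYN at -0.73 ± 0.459, PTK2B at 0.16 ± 0.145, PXN at 0.21 ± 0.187 and FERMT1 at 0.33 ± 0.296. No gene of the 35 had conditions that did not overlap, against 6.16% of all genes, and 8 moved one way in every number, or 22.9% against 35.2%.

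Stiff-to-soft against LPA-to-soft compares the learned conditions with each other. EdgeR and DESeq2 called 0 of the 35 genes with and without the block, beside 0% to 0.509% of all genes. YES1 had the only unadjusted p under 0.05, with the block, or 2.86% against 9.42% of all genes, and without it the counts were 0 of 35 and 1.39%. YES1 was at 136.5, 146.8 and 164.8 CPM in stiff-to-soft, against 164.8, 165.6 and 176.5 CPM in LPA-to-soft, a difference of -0.18 ± 0.120. TLN1 and CAV1 were lower in stiff-to-soft without overlap, which made 5.71% of the 35 against 5.84% of all genes, or 3.19% on the lower side. EdgeR with the block called 0.00648% of all genes. CAV1 stayed between 1245 and 1261 CPM in stiff-to-soft, against 1324 to 1355 CPM in LPA-to-soft. TLN1 stood at -0.16 ± 0.099. PTK2 (0.04 ± 0.094), FERMT2 (0.21 ± 0.169), NEDD9 (0.24 ± 0.277), TLN2 (0.17 ± 0.181), TNS1 (0.41 ± 0.450), TNS4 (-0.16 ± 0.419) and LIMS1 (-0.12 ± 0.171) were not called. TNS3 averaged 377.3 ± 111.3 CPM in stiff-to-soft, against 368.4 ± 99.79 CPM in LPA-to-soft (SD, n = 3 each), less than the spread. Of the 35 genes 15 moved one way in every number, or 42.9% against 35% of all genes.

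The 2 learned conditions together were then set against the 2 others. The conditions of a class share the outcome that the study assigns and not a treatment. TNS3 was the one gene of the 35 for which both learned libraries exceeded both others within every replicate number. This held for 1 of 35 genes, or 2.86%, against 1.48% of all genes on that side and 2.49% on either. TNS3 averaged 372.9 ± 94.69 CPM over learned libraries, against 292.4 ± 78.11 CPM over the others (SD, n = 6 each), and the differences within numbers 1, 2 and 3 were 0.39, 0.34 and 0.34 on the log2 scale. EdgeR without the block gave 0.35 ± 0.198 and an adjusted p of 0.9999. With the block it gave 0.35 ± 0.054 and 0.174, or 0.0236 without soft-to-soft replicate 1. Of 37 alternative fits only 4 called TNS3 for the classes. DESeq2 with the block called it (0.35 ± 0.060, adjusted p = 2.96e-05), as 1 of 35 genes against 0.852% of all genes. Fitted as a contrast over 4 separate conditions, again blocked, edgeR also called it (0.36 ± 0.047, edgeR adjusted p = 0.0295), as 1 of 35 against 0.0453% of all genes. Spread among conditions within a class is not part of the error in that contrast.

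**Figure D3:**
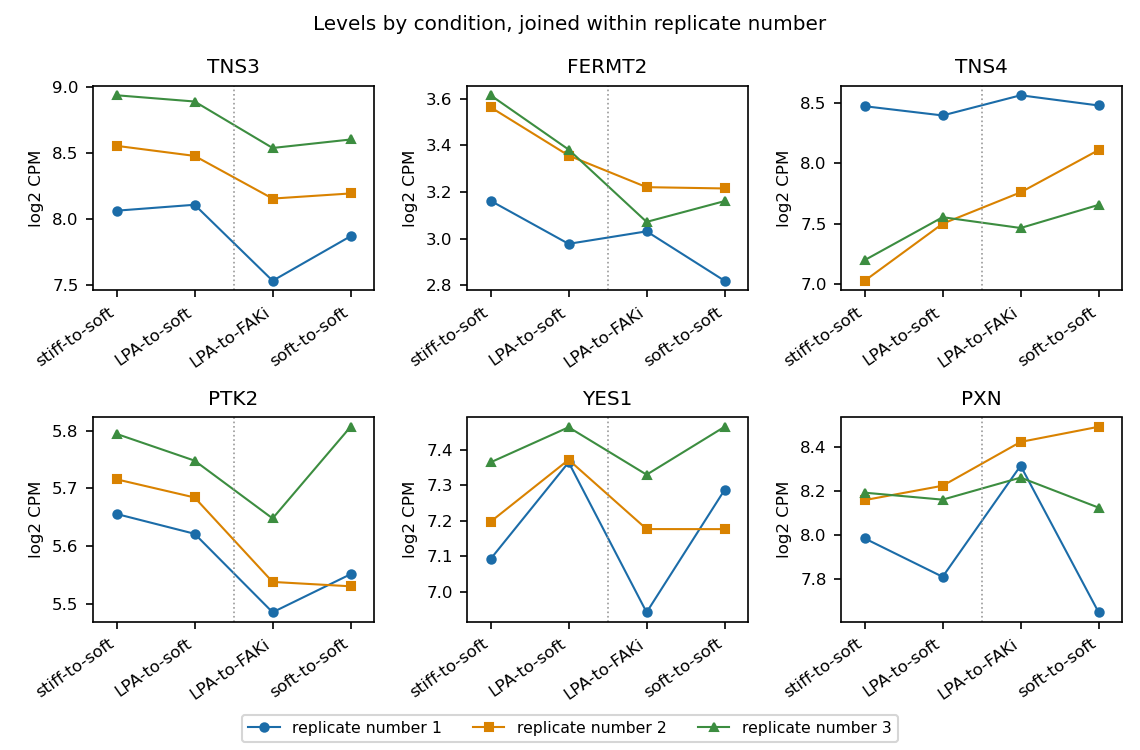
Log2 CPM of TNS3, FERMT2, TNS4, PTK2, YES1 and PXN in each library, by condition, with libraries of the same replicate number joined. The dotted line parts the learned conditions (left) from the others (right), and each panel has its own axis. For TNS3 the 3 lines are nearly parallel and step down at the dotted line, and for TNS4 replicate 1 stays high and flat.

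The remaining genes separated the classes less. FERMT2 had the only unadjusted p under 0.05 in edgeR without the block, as 2.86% of the 35 against 2.89% of all genes. It was at 10.2 ± 1.658 CPM in the learned class against 8.51 ± 0.8562 CPM in the other class (SD, n = 6 each), a difference of 0.27 ± 0.117. With the block 4 genes had such a p, or 11.4% against 9.94% of all genes: TNS3, FERMT2 and PTK2 on the higher side and TNS4 on the lower. PTK2 averaged 52.1 ± 2.284 CPM over learned libraries against 48.4 ± 4.109 CPM over the others (0.11 ± 0.063), and its learned libraries were above both others in replicate numbers 1 and 2 but not in 3, where soft-to-soft was highest at 56 CPM. TNS4 stood at -0.26 ± 0.274, FERMT1 at -0.24 ± 0.203, PXN at -0.14 ± 0.127, BCAR1 at -0.12 ± 0.097, FYN at 0.21 ± 0.326 and TNS1 at 0.29 ± 0.305. No gene of the 35 had classes that did not overlap, against 0.136% of all genes, and 17 moved one way in every number, or 48.6% against 39.9%. Of the 11 genes for talins, kindlins, tensins, parvins and the ILK partners LIMS1 and RSU1, 8 had positive and 3 negative values, of the 10 adaptors 4 and 6, and of the 6 kinases 3 and 3.

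Averaged over the 35 genes, expression was nearly level. The mean log2 CPM ran from 5.907 in soft-to-soft replicate 1 to 6.035 in soft-to-soft replicate 2, so the 2 ends lay in 1 condition. Its differences from soft-to-soft were 0.030 in stiff-to-soft and 0.029 in LPA-to-soft. They were -0.016 for LPA-to-FAKi against LPA-to-soft and 0.023 for learned against not learned. The median size of a fold change was 0.0813 for these genes and 0.161 for all genes in LPA-to-FAKi against LPA-to-soft. For stiff conditioning against soft these medians were 0.0879 and 0.101.

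For most of these genes, as for most genes tested, libraries differed more by replicate number than by condition. An edgeR test of replicate number beside condition called 19 of the 35 genes, or 54.3%, against 52.3% of all genes. Replicate number held a median of 51.4% of the sum of squares of a gene's log2 CPM, against 50.5% over all genes, and condition held 21.8% against 19.3%. The 5 genes with the smallest p were TNS3, TNS4, LIMS1, PARVA and PARVB, with adjusted p from 9.735e-06 to 0.0005691 in edgeR. TNS3 was higher in number 3 than in number 1 by 0.85 on the log2 scale, PARVB by 0.58, LIMS1 by 0.44 and PARVA by 0.39, and TNS4 was lower by 1.02. PARVA, PARVB and LIMS1 encode binding partners of the pseudokinase ILK, and ILK itself was not called (edgeR adjusted p = 0.137). For 10 of the 35 genes, or 28.6%, the 4 libraries numbered 3 did not overlap the 4 numbered 1, against 33.6% of all genes. Replicate number held more than 50% for 18 of the 35, or 51.4%, against 50.5% of all genes. Condition held more than replicate number for 7 genes, namely DOCK1, RSU1, TLN1, SHC1, TNS1, RAPGEF1 and GIT2, with no such count taken over all genes. For TNS3 the 2 together held 98.3%.

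**Figure D4:**
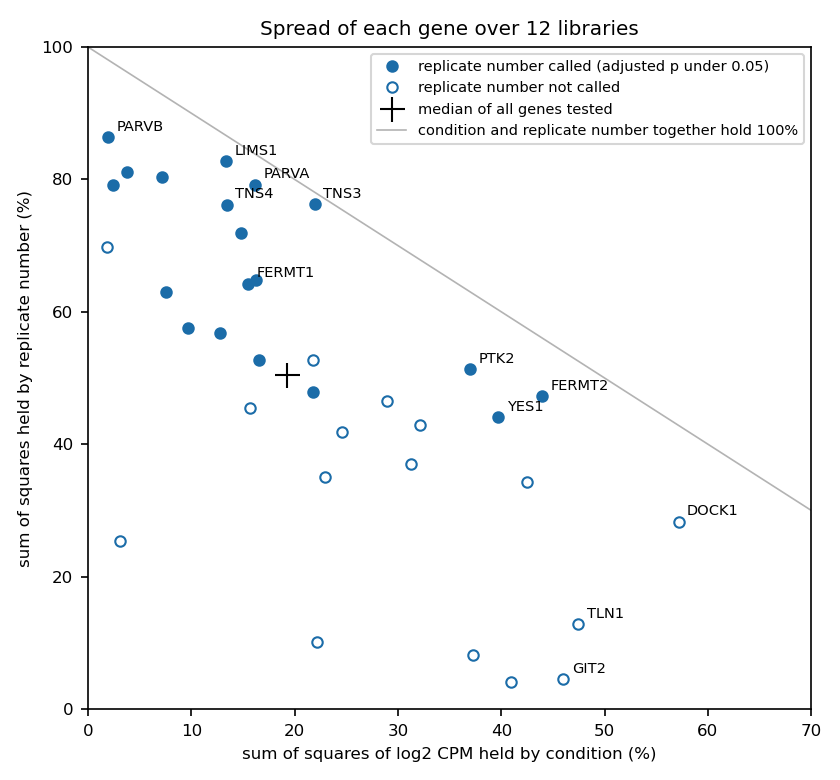
Share of the sum of squares of log2 CPM over the 12 libraries held by condition (x axis, %) and by replicate number (y axis, %), with 1 point per gene. Filled points are the 19 genes called for replicate number, the cross is the median of all genes tested, and the line marks where both together hold everything. TNS3 lies next to that line, and DOCK1 lies farthest to the right.

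Other genes of the pathway were examined from 3 lists, with actin linkers of adhesions (27 of 29 tested, PARVG and TNS2 left out), kinases, phosphatases and GTPase regulators around FAK (34 of 34), and integrins (11 of 12, ITGB3 left out). In the 6 comparisons edgeR called 0 of these 72 genes with and without the block, where 0% to 0.583% of all genes were called. For replicate number it called 17 of the actin linkers, 21 of the regulators and 6 of the integrins, against 52.3% of all genes. For the 2 classes, 5 of the 72 had an unadjusted p under 0.05 without the block, or 6.94% against 2.89% of all genes, and 15 with it, or 20.8% against 9.94%. DESeq2 with the block called 2, LPP and ITGAV, or 2.78% against 0.852% of all genes. ITGAV, the alpha chain of fibronectin and vitronectin receptors, was at 126.7 ± 11.36 CPM in the learned class against 99.9 ± 12.82 CPM in the other (SD, n = 6 each). It rose by 0.34 ± 0.091 (adjusted p = 0.0298) in DESeq2 with the block. Both learned libraries lay on the same side of both others in every replicate number for 3 of the 72, or 4.17% against 2.49% of all genes, with ITGAV and ARHGEF28 higher and TGFB1I1 lower. For ITGAV the margin in number 1 was small, with stiff-to-soft at 114.8 CPM and soft-to-soft at 114.5 CPM. LPP, a zyxin relative at adhesions, rose by 0.39 ± 0.103 (adjusted p = 0.028). LPP also rose in LPA-to-soft against soft-to-soft by 0.64 ± 0.109 (adjusted p = 9.9e-06) and in stiff-to-soft by 0.43 ± 0.109 against the same libraries (adjusted p = 0.00495). SORBS2, a vinculin-binding adaptor, rose there too, by 0.55 ± 0.147 (adjusted p = 0.00968), and within numbers 1, 2 and 3 by 0.29, 1.07 and 0.36. These are 2 of the 72 for stiff conditioning, or 2.78% against 3.27% of all genes, and 1 for LPA, or 1.39% against 0.792%. For genes of these lists no fold change was taken without soft-to-soft replicates 1 and 2.

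In LPA-to-FAKi against LPA-to-soft DESeq2 with the block called 9 of the 72, or 12.5% against 9.44% of all genes. CSK, the kinase that restrains SRC family kinases, was at 164, 179.9 and 182.2 CPM in LPA-to-FAKi, against 132.5, 165.3 and 153.1 CPM in LPA-to-soft. It rose by 0.23 ± 0.066 (adjusted p = 0.016). ITGAV was at 80.7, 114.1 and 95.1 CPM in LPA-to-FAKi, against 138.2, 128.4 and 110.7 CPM in LPA-to-soft, and fell by 0.38 (adjusted p = 0.0408). LPP, PDLIM1, PALLD, ARHGAP26 and ARHGAP35, the p190 RhoGAP, fell by 0.35, 0.36, 0.25, 0.40 and 0.25. The zyxin relative TRIP6 rose by 0.26 and PDLIM7 by 0.35. Medians of the lists in this comparison were 0.013 for actin linkers, -0.039 for the regulators and -0.121 for integrins, with 3 integrins above 0 and 8 below, against a median of -0.005 over all genes tested. In LPA-to-FAKi against soft-to-soft PDLIM1 was the 1 gene of the 72 called, or 1.39% against 4.65% of all genes, at -0.48 ± 0.108 (DESeq2 with the block, adjusted p = 0.000911). All of these were named after their values were seen.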

How the data were processed

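RNA was sequenced in 12 Cal27 libraries, 3 per condition. The authors deposited read counts, whole numbers with a gene symbol each. A second deposited table, with log2 values, rescales those counts by a factor per library and entered no test. Per the labels, RNA came from an RNeasy kit and libraries from a stranded TruSeq kit. Per the submitters' processing notes, cutadapt, FastQC, STAR, HTSeq, DESeq2 and the build hg19 were used, with versions not given. The strand setting of the counting is not given in the sources used here, so overlapping and antisense genes may share reads.

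The tests used edgeR 4.0.16 on R 4.3.3 (limma 3.58.1) with TMM scaling, filterByExpr by condition, the quasi-likelihood F test and Benjamini-Hochberg adjustment over 15437 genes. Pairs of conditions were contrasts in 1 model of the 4 conditions, and the classes a model of 2 classes. DESeq2 1.42.0 (Wald test), a replicate block, RLE scaling, no filter, halved counts and left-out libraries were alternatives. The scripts were tested on simulated data. The prior count behind log2 CPM was 2. Date-like symbols, 28 in number, held 0.178% of counts. Exon lengths came from GENCODE v29, with the exons of all transcripts of a gene joined. Promoter windows on chromosome 8 were left out of the 58 windows of these genes. They were kept among the 35116 windows and in the count of 27 genes.

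After condition means were taken off, the 18 same-number pairs of libraries had r between 0.312 and 0.659, and the other 36 pairs had r between -0.517 and 0.0372. All same-number values exceed the limit of 0.1, so the numbers, which come from the sample labels, were taken to pair the samples. What a number stands for is not stated.

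Genes named in a comparison are PTK2, any of the 35 called by edgeR with or without the block, and the 4 highest and 4 lowest fold changes. For replicate number they are the 5 with the smallest p, and from the other lists those called by edgeR. The 35 genes, the lists and the tests were chosen with earlier results of these data known, so no p was adjusted over a list and none was given for its mean.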

Additional observations from a re-analysis of the deposited data

Results flagged for a closer look

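Among the 9 genes named in the class comparison, each class of 6 libraries was searched for a library far from its neighbours, 18 searches in all, and chance flags about 1 in 20. One library stood out. BCAR1, which encodes the adaptor p130Cas, had a log2 CPM of 7.28 in soft-to-soft replicate 1, where the other libraries of the not-learned class lay between 7.69 and 7.86. That gap is 0.715 of the range of the class, above Dixon's limit for 6 samples. The library is 1 of the 2 whose low counts are not mostly even. In the learned class too BCAR1 was lowest in a library numbered 1, LPA-to-soft replicate 1, at 7.385. BCAR1 stood at -0.12 for learned against not learned with all libraries and at -0.20 without soft-to-soft replicate 1 (edgeR without the block), uncalled in both.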

How the results depend on the processing

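EdgeR with the replicate block changed no call of the 35 genes in any of the 6 comparisons. DESeq2 with the replicate block called 3 of them for stiff-to-soft against soft-to-soft, 1 in LPA-to-soft against soft-to-soft, 2 in LPA-to-FAKi against LPA-to-soft and 1 in learned against not learned, where edgeR called 0. For LPA-to-FAKi against LPA-to-soft, edgeR with the block called 1 with no low-count filter, beside 25 of all genes. It called 1 without soft-to-soft replicates 1 and 2, beside 202 of all genes. For the classes it called 1 without those libraries and 1 in the contrast of the 4 conditions, beside 4 and 7 of all genes. Leaving out 1 library at a time gave 0 to 1 calls for stiff-to-soft against soft-to-soft, 0 to 2 in LPA-to-FAKi against LPA-to-soft and 0 to 1 for the classes. In the same order these fits called 0 to 228, 0 to 639 and 0 to 4 of all genes. Why the tools differ was not tested.

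Of the 72 other pathway genes, counted under alternatives chosen after seeing the data, edgeR called 0 and DESeq2 with the block called 2, 1, 9 and 1 for stiff-to-soft against soft-to-soft, LPA-to-soft against soft-to-soft, LPA-to-FAKi against LPA-to-soft and LPA-to-FAKi against soft-to-soft, and 2 for the classes. With no filter and the block, LPA-to-FAKi against soft-to-soft had 1, beside 206 of all genes. Leaving out 1 library gave 0 to 5 in LPA-to-FAKi against LPA-to-soft and 0 to 1 in LPA-to-FAKi against soft-to-soft. Over all genes these were 0 to 639 and 0 to 307. Over all genes, in the order stiff-to-soft against soft-to-soft, LPA-to-soft against soft-to-soft, LPA-to-FAKi against LPA-to-soft, LPA-to-FAKi against soft-to-soft, stiff-to-soft against LPA-to-soft and the classes, edgeR without the block called 0 in each, edgeR with the block 90, 0, 0, 87, 1 and 1, and DESeq2 with the block 456, 82, 1231, 704, 71 and 129.

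Of 54 named fold changes, 38 kept their direction in every alternative and 16 did not. Without soft-to-soft replicates 1 and 2, stiff-to-soft against soft-to-soft gave, with the value under the block in parentheses, -0.09 for PTK2 (-0.02), 0.05 for TNS4 (-0.45), 0.40 for FYN (-0.11) and -0.05 for TNS3 (0.34). LPA-to-soft against soft-to-soft then gave -0.13 for PTK2 (-0.05), 0.21 for TNS4 (-0.21), 0.29 for FERMT1 (-0.03), 0.07 for NEDD9 (-0.25) and -0.08 for TNS3 (0.31). Of these genes only PTK2 reversed with the block too. With 1 library left out at a time, FYN ran from -0.66 to 0.12 for stiff-to-soft against soft-to-soft. In LPA-to-soft against soft-to-soft PTK2 ran from 0.00 to 0.15, BCAR1 from -0.26 to 0.02, FERMT1 from -0.25 to 0.08 and NEDD9 from -0.27 to 0.22. In LPA-to-FAKi against soft-to-soft PTK2 ran from -0.14 to 0.02, TNS3 from -0.38 to 0.10, PTK2B from -0.02 to 0.28 and FERMT1 from -0.04 to 0.56. In stiff-to-soft against LPA-to-soft PTK2 ran from 0.00 to 0.07 and TNS4 from -0.77 to 0.19.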
